A study of Pimephales promelas with 28 samples.

Results

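In liver RNA of control fathead minnows (Pimephales promelas), 66 array probes separated the 24 h arrays from every later one: 51 were higher at 24 h and 15 were lower, of 11240 probes bright enough to be considered and 15208 probes in all. A probe was chosen if its values on all 4 control arrays of 24 h lay above, or all lay below, its values on all 10 control arrays of 48 and 72 h. The values were log2 signals minus the array's 75th percentile of log2 signal, and a probe was considered if the scanner software marked it as well above background for 3 or more arrays from any 1 control time. These control values chose the probes, so they are given as a description with no test. The 14 arrays of fish exposed to phenanthrene took no part in the choice, and the same difference was tested in them.

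The fish were sexually regressed females, per the labels, and total liver RNA was hybridised to one-colour Agilent arrays with the dye Cy3. Control arrays, labelled with no agent and a dose of 0 ng per L, covered 24 h (n = 4), 48 h (n = 5) and 72 h (n = 5). Phenanthrene arrays, labelled with 29 ng per L, covered 24 h (n = 5), 48 h (n = 5) and 72 h (n = 4). The age of the fish, the vehicle, the feeding and the clock time of sampling are not given in the sources used here, nor is whether an array held 1 fish or a pool, so a p-value here reflects only how these arrays vary. Replicate numbers were assigned by accession and serve as names.

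The fathead minnow is a small freshwater fish used in toxicology, and phenanthrene is a polycyclic aromatic hydrocarbon found in oil and combustion products. The liver makes most plasma proteins, stores and releases sugar and fat, and oxidises foreign compounds. In egg-laying fish it also makes the egg-yolk precursor vitellogenin under estrogen, which is low in sexually regressed females. Many liver transcripts follow the time of day, feeding and handling, so an untreated group at each time is the usual reference for an exposure series. In whole liver, fewer cells of a type and less RNA per cell cannot be told apart.

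The probes carry identifiers of expressed-sequence contigs, gi numbers or clones, and 0 of the 15208 identifiers matched the 64593 genes of the reference table. No member could be given a gene name or a role, the labelled tissue could not be checked against liver markers, and the lists of clock, stress, lipid and other genes could not be used. Members are therefore described by probe name and by the identifier in the files.

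Over the 28 arrays, the signal at the 75th percentile lay between 134.5 and 1253 intensity units, and 5127 to 12278 probes per array were well above background. The arrays lay on 5 slides read on 2 scan days, and the 8 arrays of the first day were all of 48 h. On the 24 h control arrays the 75th percentile was 287, 156, 323 and 267 units, inside the range of 134.5 to 614 units on the later control arrays. Exposed 24 h replicate 3 had the fewest probes above background, and exposed 48 h replicate 1 and 72 h replicate 4 had 201 and 498 spots marked as outliers. The members' counts by direction and median differences in exposed arrays, and the differences of those described most closely, are given with and without these 3. Counts within slides, by brightness quartile, against the control midpoint and at an unadjusted p are given only with them.

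The members above at 24 h made up 0.454% of the considered probes and those below 0.133%. The split between the directions depended on how arrays were scaled. With quantile normalization it was 26 above and 26 below, and with each array centred on its median it was 21 above and 54 below. With normexp background correction it was 21 above and 18 below, and in the authors' deposited table it was 21 above and 24 below. Of the 51 members above, 20, 19, 10 and 19 were found again in these 4 sets of values, and of the 15 below, 13, 12, 13 and 12. In all 4 alternative sets, 11 of the 15 members below and 4 of the 51 above were found again, while 23 of the 66 were in none of them. All 30 members named here by rule kept the sign of their control difference under every alternative run. Runs that left out a control array could not reverse it, since by the rule all 24 h arrays lie beyond all later ones. Only the other alternatives could have reversed it, and they too used the arrays that chose the members.

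**Figure D1:**
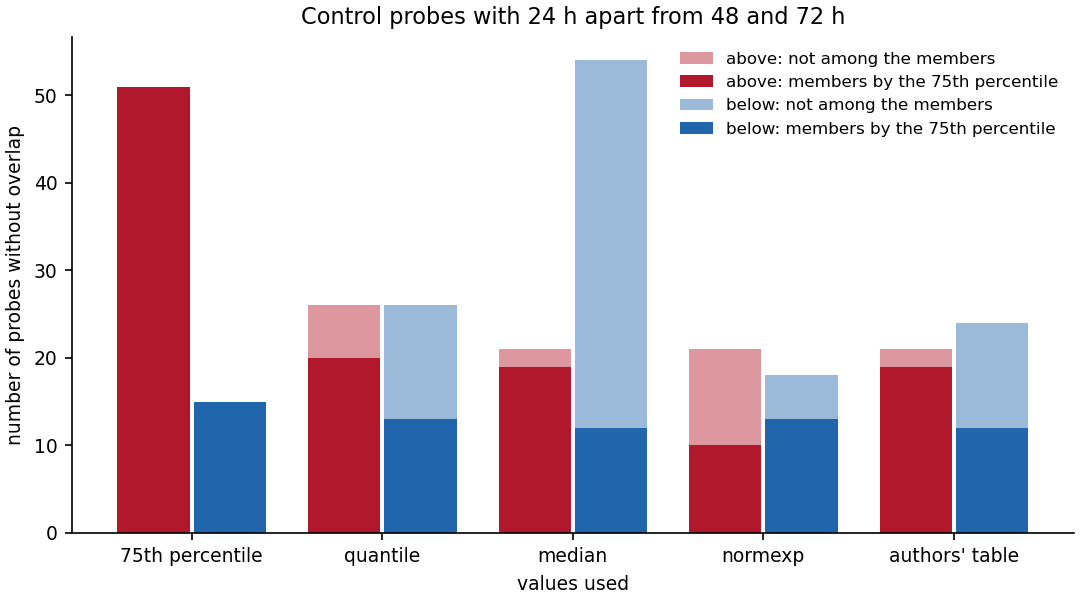
Number of control probes with all 24 h arrays above (red) or below (blue) all 48 and 72 h arrays, under 5 sets of values on the x axis; the dark part of each bar is the probes that are also members by the 75th percentile. The count above goes from 51 to between 21 and 26 and the count below from 15 to between 18 and 54, and most of the dark red part is lost while the dark blue part keeps 12 or 13 probes.

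The count also depended on single arrays, in part by construction, since fewer arrays can overlap less. Leaving out 1 control array at a time gave 52 to 196 probes above and 17 to 59 below. It exceeded 1.5 times the count above without 24 h replicate 1 (120), 2 (196), 3 (80) or 4 (93), without 48 h replicate 2 (100), and without 72 h replicate 1 (90) or 2 (81). It exceeded that for the count below without 24 h replicate 1 (50), 2 (59), 3 (36) or 4 (31), without 48 h replicate 1 (27) or 2 (31), and without 72 h replicate 1 (24).

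Near the limit of the rule, UF_Ppr_AF_102636 and UF_Ppr_AF_102383 were members above by gaps of 0.0007 and 0.0029 log2 units. UF_Ppr_AF_103916 and UF_Ppr_AF_116352 were members below by 0.0019 and 0.0080. Just outside, UF_Ppr_AF_104525 and UF_Ppr_AF_111875 missed the list above by overlaps of 0.0013 and 0.0016. UF_Ppr_AF_113810 and UF_Ppr_AF_116613 missed the list below by 0.023 and 0.033. The gap, meaning the distance between the nearest arrays of the 2 sides, had a median of 0.11 among members above and 0.031 among members below.

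The lists above and below differed in brightness. The mean control level had a median of -2.81 over the members above, -1.43 over all considered probes and 0.34 over the members below, all in log2 units relative to the 75th percentile. All 15 members below were well above background on all 14 control arrays, as were 18 of the 51 members above (35.3%) and 64.1% of considered probes. Of the 51 members above, 11 were considered only through the 24 h arrays, the group where they were high, and so had to differ in brightness there.

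The members below contained the widest separation of either list. UF_Ppr_AF_115263, with the identifier FJU.7218.C1___1_nrnt, read -2.68, -2.36, -2.89 and -2.66 on the 24 h control arrays. It read -0.72, -0.67, -0.99, -0.65 and -1.04 at 48 h, and -0.70, -0.04, -0.68, -0.56 and -0.14 at 72 h. The 24 h arrays thus lay 1.33 log2 units under the nearest later array, a mean 4.08-fold lower signal at 24 h, and the 48 h and 72 h arrays overlapped each other.

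UF_Ppr_AF_118743, a gi-numbered sequence (gi_72698685___1_nrnt), was lower at 24 h by a similar mean but with more spread. Its 24 h control arrays read -1.50, -2.81, -2.42 and -2.38. The 48 h arrays read 1.02, -1.02, 0.06, 0.17 and -1.36, and the 72 h arrays -1.12, 0.05, -0.05, -0.12 and -0.43. The mean difference was -2.0, but the gap was 0.14, set by 24 h replicate 1 and 48 h replicate 5.

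The other members below differed by less. UF_Ppr_AF_114886 (FJU.7378.C1___1_nrnt) read -0.26, -0.50, -0.35 and -0.15 at 24 h against 0.01 to 1.24 on the later control arrays, with a mean difference of -0.81. UF_Ppr_AF_109620 (FJU.12781.C1___1_nr0nt1) read 1.14, 1.45, 1.42 and 1.15 at 24 h against 1.59 to 2.71 later. UF_Ppr_AF_109405, the only clone-named member (nd_SI_FOR-E08.g___1_nrnt), read 0.10, 0.12, 0.13 and -0.07 against 0.25 to 0.60. Each of these was bright with 24 h arrays close together, and the mean differences were -0.81, -0.68 and -0.37 log2 units. The later arrays of UF_Ppr_AF_114886 and UF_Ppr_AF_109620 spread more widely than their 24 h arrays. The brightest member, UF_Ppr_AF_112639 (FJU.2340.C1___1_nrnt), read 3.06, 2.87, 1.81 and 2.90 at 24 h against 3.09 to 4.07 later.

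Over the 15 members below, the control difference of 24 h minus later had a median of -0.67 and ran from -2.03 to -0.30. Over all considered probes the median was 0.13. UF_Ppr_AF_118216 (-0.40), UF_Ppr_AF_117834 (-0.35), UF_Ppr_AF_116638 (-0.67) and UF_Ppr_AF_100561 (-0.93) lay within that range with gaps of 0.10, 0.056, 0.023 and 0.023. The within-group SD over control arrays had a median of 0.25 for these members, 0.51 for the members above and 0.63 for considered probes. The rule favours probes with little spread on the control arrays, so these SDs carry that choice.

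Among the members above, UF_Ppr_AF_103820 (FJU.12228.C2___1rc_nrnt) had the widest gap of those bright on all control arrays. Its 24 h control arrays read -0.39, -0.24, -0.38 and -0.31. The 48 h arrays read -0.83, -1.35, -1.02, -1.77 and -2.31, and the 72 h arrays -0.85, -1.30, -2.97, -1.13 and -1.95. The 24 h arrays were tightly grouped, the later ones spread over more than 2.1 log2 units, and the gap was 0.44.

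UF_Ppr_AF_106942 (FJU.2859.C3___1_nrnt) had one of the larger mean differences, 2.04. It read 0.04, 0.23, 0.79 and -0.20 on the 24 h control arrays. At 48 h it read -2.44, -2.33, -2.08, -0.57 and -1.55, and at 72 h -1.13, -1.85, -2.25, -1.35 and -2.67. It was also found in all 4 alternative sets of values, as were UF_Ppr_AF_107598, UF_Ppr_AF_109343 and UF_Ppr_AF_118456 among the members above.

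UF_Ppr_AF_108005 (FJU.7613.C1___1rc_nrnt-1) read -0.06, -0.21, -0.07 and -0.19 at 24 h, against -1.77 to -0.54 on the later control arrays. UF_Ppr_AF_118456 (FJU.5021.C2___1_nrnt) read 0.75, 1.25, 0.81 and 0.90, against -0.64 to 0.48. UF_Ppr_AF_102362 (FJU.5068.C1___1_nrnt), the brightest member above, read 1.88, 1.88, 1.76 and 1.85, against 0.13 to 1.45. These 3 probes had gaps of 0.32, 0.27 and 0.31. UF_Ppr_AF_110664, UF_Ppr_AF_108071, UF_Ppr_AF_118876, UF_Ppr_AF_110639 and UF_Ppr_AF_108889 followed with gaps from 0.21 down to 0.077 and mean differences from 0.66 to 1.04.

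UF_Ppr_AF_109343 (FJU.8063.C2___1rc_nrnt-1) had the largest control difference of the members above, 2.14, and is named after its values were seen. It read -0.71, -1.39, -1.0 and -1.12 at 24 h. It read -3.65, -3.14, -3.51, -2.26 and -3.95 at 48 h, and -2.12, -1.54, -5.88, -2.34 and -3.58 at 72 h. All 4 arrays of 24 h and 8 of the 10 later ones showed it well above background.

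One member, UF_Ppr_AF_108952 (FJU.5390.C1___1_nrnt), cleared the background mark on 4 of 4 control arrays at 24 h and on 0 of 10 later. It was considered only through the 24 h arrays, where it was high, so this pattern and the bound below carry that choice. It read -3.88, -3.15, -3.87 and -4.09 at 24 h, and between -6.17 and -4.62 later, so the later group has only a bound. Each later array was given the higher of the member's own signal and the dimmest signal that cleared the mark. By that bound the member was at least 1.98-fold higher at 24 h. Such a bound holds for the processed signal and not for another background correction.

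Over the 51 members above, the control difference ran from 0.59 to 2.14 with a median of 1.14, a median of 1.13 both against 48 h alone and against 72 h alone. The median level of this list, relative to each probe's mean over the 14 control arrays, was 0.65, 0.73, 0.83 and 0.74 on the 24 h control arrays. On the later control arrays it ran from -1.01 to 0.15, lowest on 72 h replicate 3. That array was the brightest control array, with a 75th percentile of 614 units, and the same median over all considered probes was -0.29 there. Without this array the rule gave 54 probes above and 19 below. The median of the list below was -0.31, -0.40, -0.40 and -0.41 on the 24 h arrays and between 0.0032 and 0.29 on the later ones.

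**Figure D2:**
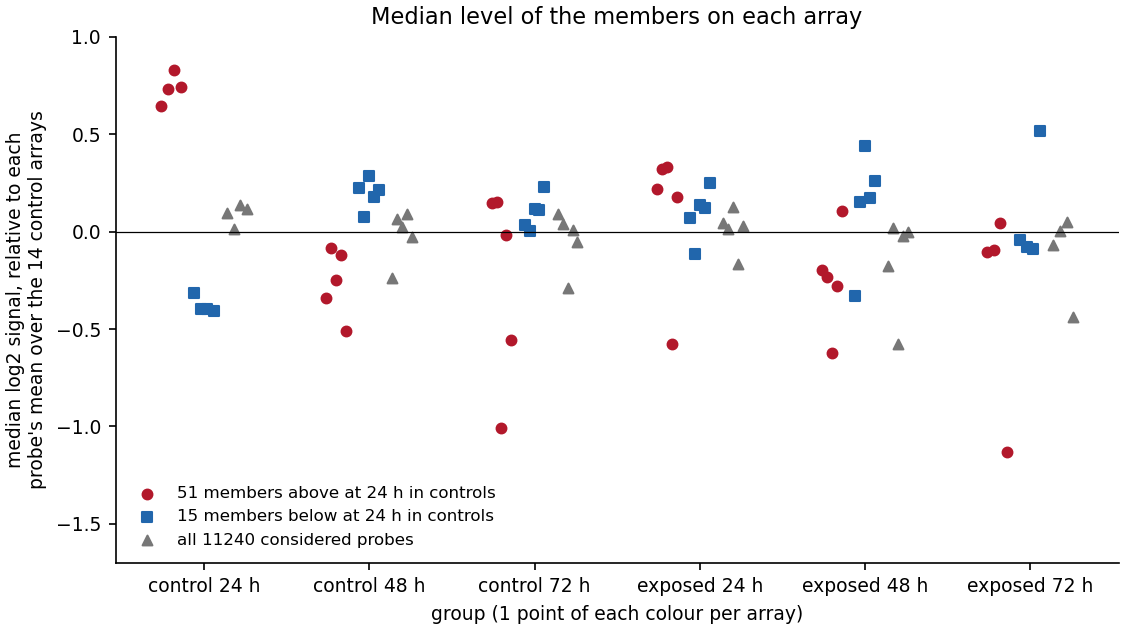
Median log2 signal on each of the 28 arrays, relative to each probe's mean over the control arrays, for the members above (red circles), the members below (blue squares) and all considered probes (grey triangles), by group. The control arrays separate by choice of the members; on the exposed arrays the red points at 24 h run from -0.58 to 0.33 and overlap the later ones, which run from -1.13 to 0.11.

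In the exposed arrays most members lay in the control direction, with smaller median differences, and none passed the test. The control sizes, here and below, come from the arrays that chose the members, and that choice favours large ones. Control and exposed sizes are therefore not compared as an effect of exposure. Of the 51 members above, 42 (82.4%) were higher at 24 h than later, where 57.7% of the 11492 probes tested were higher. Their median difference was 0.39, against 1.14 in controls, and over all probes tested it was 0.11. The share of all probes is not matched for brightness, and most members above were dim. In the 2 dim quartiles of mean control level, 72.6% and 60.3% of considered probes were higher at 24 h in exposed arrays. Of the 15 members below, 11 (73.3%) were lower, where 42.3% of all probes tested were lower, with a median difference of -0.13 against -0.67 in controls. That median below was -0.30, -0.075, -0.28 and -0.28 without exposed 24 h replicates 1, 2, 3 and 5. It was -0.20 and -0.064 without 48 h replicates 2 and 3, and -0.25 and -0.27 without 72 h replicates 2 and 3. All exposed differences are from the limma fit to all 28 arrays, with p-values adjusted by Benjamini-Hochberg over all probes tested. The spread in that fit includes the control arrays, where the rule favours probes with little spread. Member p-values, and member counts at an unadjusted p, carry that part of the choice. In a limma fit of only the exposed arrays, 0 members passed.

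No member passed an adjusted p of 0.05 in limma for exposed 24 h minus later, where 3 probes or 0.0261% of all passed. The smallest adjusted p was 0.298 among members above and 0.333 among members below. With 5 against 9 arrays, not passing does not show that a difference was absent. At an unadjusted p under 0.05, limma gave 7 of the 51 members above as higher at 24 h and 1 as lower, against 7.8% and 3.72% of all probes tested. Of the 15 members below it gave 1 as lower and 0 as higher. The 3 probes that passed, UF_Ppr_AF_106564, UF_Ppr_AF_102490 and UF_Ppr_AF_104920, were higher at 24 h and were not members. Each cleared the background mark on 3 of the 5 exposed 24 h arrays and on 0, 1 and 1 of the 9 later ones, so no size is given. UF_Ppr_AF_106564 and UF_Ppr_AF_102490 entered the test only through the exposed 24 h arrays. UF_Ppr_AF_104920 cleared the mark on 6 control arrays and also met the brightness condition in a control group. These 3 probes are named after their values were seen.

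Against 48 h alone, 0 members and 1 probe (0.0087%) passed in limma, with a smallest adjusted p of 0.219 among members. Unadjusted, 9 members above were higher and 1 lower, against 7.94% and 3.57% of all probes, and 0 members below were higher and 2 lower. Against 72 h alone, where all arrays were read on 1 scan day, 0 members and 3 probes (0.0261%) passed in limma, with a smallest adjusted p of 0.524 among members. Unadjusted, 5 members above were higher and 1 lower, against 5.29% and 2.65%, and 0 of the members below passed in either direction. No member had all 5 exposed 24 h arrays beyond all 9 later exposed arrays, above or below. Of the 11240 considered probes, 0.222% lay wholly above and 0.0979% wholly below.

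**Figure D3:**
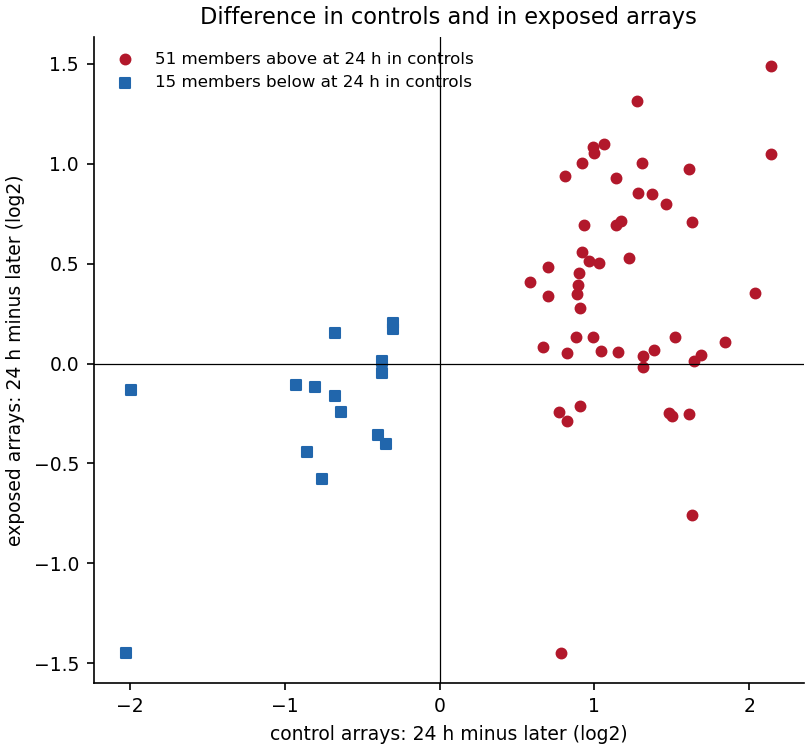
Log2 difference of 24 h minus later for each of the 66 members, in control arrays (x axis) and in exposed arrays (y axis); red circles are members above and blue squares members below. The x axis was fixed by the choice of members; on the y axis 42 of 51 red points lie over 0 and 11 of 15 blue points under 0, with values from -1.45 to 1.49.

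Each exposed array was also placed against the midpoint of a member's control gap, a description chosen after the data were seen. The control values that chose the members also set the midpoint, so that choice bears on these counts. Other considered probes have no such gap, so no share over all probes stands beside them. The exposed 24 h arrays lay on the 24 h side at 18, 21, 20, 7 and 18 of the 51 members above. The later exposed arrays lay there at 5 to 17 of 51, with the highest counts of 16 on 48 h replicate 1 and 17 on 72 h replicate 3. The ranges overlapped through exposed 24 h replicate 4, and no exposed array was on the 24 h side at more than 21 of 51. At the 15 members below, the exposed 24 h arrays lay on the 24 h side at 6, 4, 3, 4 and 3, and the later ones at 0 to 9.

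The exposed arrays with the lowest medians of the members above were also the brightest. The medians were -0.58 on 24 h replicate 4, -0.62 on 48 h replicate 3 and -1.13 on 72 h replicate 4, whose 75th percentiles were 487, 511 and 1253 units. The same medians over all considered probes were -0.16, -0.58 and -0.44. The part of array brightness in these values was not tested.

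Dim probes as a whole were more often higher at 24 h, in controls and in exposed arrays. In the 4 quartiles of mean control level, from dim to bright, 75.2%, 70.1%, 52.4% and 44.4% of considered probes were higher at 24 h in controls. In exposed arrays the shares were 72.6%, 60.3%, 52.7% and 45.8%. The members above fell mostly in the 2 dim quartiles, where 17 of 19 and 20 of 23 were higher at 24 h in exposed arrays, then 5 of 8 and 0 of 1 in the bright ones. The members below all fell in the 2 bright quartiles, where 7 of 9 and 4 of 6 were lower. The quartiles were chosen after the data were seen, and the part of brightness in the members' direction was not tested.

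**Figure D4:**
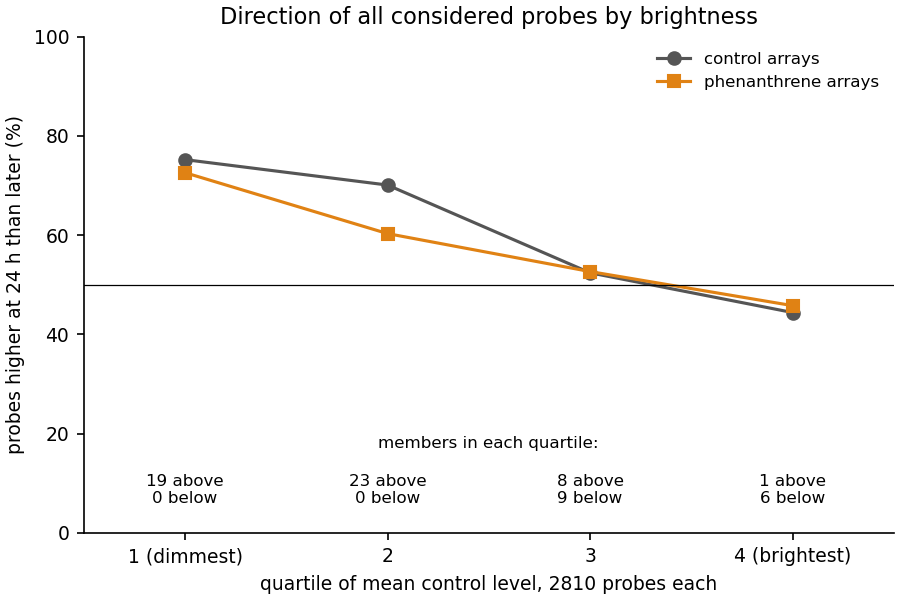
Share of considered probes that were higher at 24 h than later (y axis, percent) in each quartile of mean control level (x axis), in control arrays (grey) and phenanthrene arrays (orange), with the number of members in each quartile printed below. Both lines run from over 72% in the dimmest quartile to under 46% in the brightest, and 42 of the 51 members above lie in the 2 dim quartiles.

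How many members above were higher varied with the scaling and the arrays used, and they stayed a majority in each setting given here. With quantile normalization 32 of 51 were higher at 24 h in exposed arrays, against 48.3% of all probes tested, and with median scaling 35 against 52.5%. With normexp it was 48 against 68.9%, and the authors' deposited table gave 34 against 53.9%. Without the 3 arrays of doubtful quality it was 34 against 50.2%, and 11 of the 15 members below were lower, against 49.8%. The median difference of the members above was 0.17 with quantile normalization, 0.24 without the 3 arrays and 0.25 both on the second scan day alone and with slide as a fixed block. That of the members below was -0.21 with median scaling and -0.12 without the 3 arrays. Within slides, comparing 24 h with later arrays on slides 1, 2 and 5 gave 38, 27 and 33 of 51 higher, where 56.1%, 49.3% and 55.2% of considered probes were higher. For the members below, the same slides gave 8, 4 and 7 of 15 lower, against 43.9%, 50.7% and 44.8% of considered probes. Their median difference was -0.036, 0.074 and 0.015, so slides 2 and 5 did not show the control direction by the median. Each slide held only 3 or 4 exposed arrays of these times, so no test was made within a slide. Of the arrays of doubtful quality, slide 2 held exposed 24 h replicate 3 and slide 5 held exposed 72 h replicate 4.

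The member below with the widest control gap was the one whose exposed 24 h arrays spread most. UF_Ppr_AF_115263 read -0.69, -0.14, -1.06, -2.99 and -4.86 on the exposed 24 h arrays. It read 0.09, 0.58, -0.69, -0.59 and 0.07 at 48 h, and -0.75, 0.09, -2.51 and -0.42 at 72 h. Exposed 24 h replicates 4 and 5 lay beyond the control 24 h arrays, the other 3 lay with the later control arrays, and 72 h replicate 3 lay among the control 24 h values. The difference was -1.45 ± 0.53 (SE; 5 against 9 arrays; limma adjusted p = 0.333, and 0.233 to 0.684 over all alternatives), and -1.56 without the 3 arrays of doubtful quality.

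UF_Ppr_AF_118743 read 0.06, -1.25, 0.31, -2.52 and 0.27 on the exposed 24 h arrays, and -1.62, -1.04, 2.35, -0.58, 0.58, 0.77, -1.92, -1.77 and -0.79 on the later ones. Its exposed difference was -0.13 ± 0.58 (SE; limma adjusted p = 0.946), against -2.0 in controls. Leaving out the 3 arrays of doubtful quality gave -0.54. The exposed 24 h arrays overlapped the later ones, with 24 h replicate 4 below all of them. After UF_Ppr_AF_115263, the 4 members below with the smallest p in the control direction were UF_Ppr_AF_118216 (-0.36), UF_Ppr_AF_103916 (-0.58), UF_Ppr_AF_117834 (-0.40) and UF_Ppr_AF_112639 (-0.44), with limma adjusted p of 0.50, 0.508, 0.609 and 0.609. Without the 3 arrays of doubtful quality they gave -0.14, -0.73, 0.04 and -0.07. The member below with the smallest p in the opposite direction, UF_Ppr_AF_115114, gave 0.17 with an adjusted p of 0.790.

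**Figure D5:**
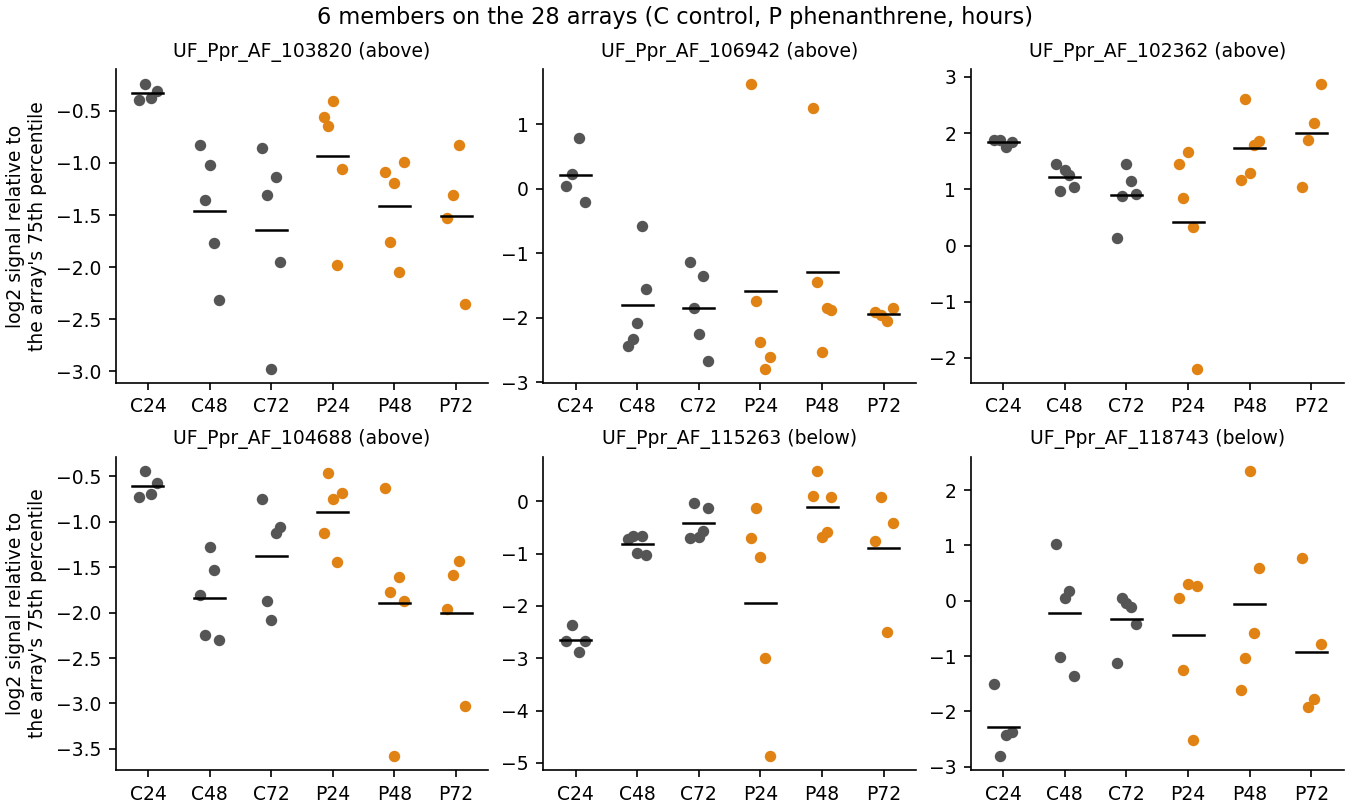
Log2 signal relative to the array's 75th percentile (y axis) for 6 members on each array, by group on the x axis (C control in grey, P phenanthrene in orange, with hours); bars are group means. UF_Ppr_AF_106942 is high on all 4 control arrays of 24 h and on 1 exposed array at 24 h and 1 at 48 h, and UF_Ppr_AF_115263 is low on 2 of the 5 exposed 24 h arrays.

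UF_Ppr_AF_106942 was high on single exposed arrays of both times. It read 1.63 on exposed 24 h replicate 1 and -1.74, -2.38, -2.79 and -2.61 on the other 24 h arrays. At 48 h it read 1.25, -1.45, -2.53, -1.84 and -1.88, and at 72 h -1.91, -1.95, -2.05 and -1.84. The 48 h value of 1.25 was a spot marked as an outlier and left out of the fit, which gave 0.36 ± 0.52 (SE; limma adjusted p = 0.808), and 0.57 without the 3 arrays of doubtful quality. Over all alternatives the difference ran from -0.45 to 0.66. Apart from 24 h replicate 1 and 48 h replicate 1, the exposed arrays of all times lay at -1.45 or lower, under every 24 h control array.

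The members above with the smallest p in the control direction were UF_Ppr_AF_106680 (FJU.11943.C2___1rc_nrnt) and UF_Ppr_AF_104688 (FJU_SB_30.441.C1___1_nrnt). UF_Ppr_AF_106680 read -2.11, -2.10, -2.59, -2.33 and -1.87 on the exposed 24 h arrays. It read -3.21, -2.58, -3.98, -2.77 and -2.70 at 48 h, and -2.83, -2.80, -3.42 and -5.02 at 72 h. Of these, 24 h replicate 3 (-2.59) and 48 h replicate 2 (-2.58) overlapped, and the other 24 h arrays lay above all later ones. The difference was 1.08 ± 0.35 (SE; limma adjusted p = 0.303), beside 0.99 in controls, where the 24 h arrays read -1.92, -1.67, -1.37 and -1.60.

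UF_Ppr_AF_104688 read -1.12, -0.47, -0.75, -1.45 and -0.69 on the exposed 24 h arrays. It read -0.62, -1.77, -3.58, -1.61 and -1.87 at 48 h, and -1.97, -1.58, -1.43 and -3.03 at 72 h. The 24 h arrays overlapped with 48 h replicate 1 and 72 h replicate 3. The difference was 1.05 ± 0.36 (SE; limma adjusted p = 0.319), beside 1.0 in controls. UF_Ppr_AF_117427 (1.31), UF_Ppr_AF_110664 (0.94) and UF_Ppr_AF_106248 (0.69) followed, with limma adjusted p of 0.333, 0.357 and 0.372. Of these 5, UF_Ppr_AF_106680, UF_Ppr_AF_104688, UF_Ppr_AF_117427 and UF_Ppr_AF_106248 were members under none of the 4 alternative sets of values. Without the 3 arrays of doubtful quality the differences of the 5, in the order named, were 0.91, 1.0, 0.68, 0.45 and 0.83.

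UF_Ppr_AF_102362 went the other way in exposed arrays. Its exposed 24 h arrays read 1.45, 0.85, 1.66, 0.33 and -2.19. It read 1.17, 2.61, 1.29, 1.79 and 1.86 at 48 h, and 1.04, 1.88, 2.18 and 2.88 at 72 h. The difference was -1.45 ± 0.44 (SE; limma adjusted p = 0.298, and 0.162 to 0.576 over all alternatives), where controls gave 0.78, and leaving out the 3 arrays of doubtful quality gave -1.69. The low value of exposed 24 h replicate 5 stood apart from the other 24 h arrays, and the 24 h and later exposed arrays overlapped. The same array held the lowest value of UF_Ppr_AF_115263.

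The dim member UF_Ppr_AF_108952 was well above background on 1 of 5 exposed 24 h arrays and 5 of 9 later ones, unlike its control pattern. These counts depend on each array's own background. On exposed 24 h replicate 3, where the member read -3.21, the dimmest probe to clear the mark had 77.9 units. No cause of the counts was tested for UF_Ppr_AF_108952. It read -3.69, -6.72, -3.21, -5.71 and -5.03 at 24 h, and -6.81 to -1.98 later, with a difference of -0.26 ± 0.60 (SE; limma adjusted p = 0.887), and -0.05 without the 3 arrays of doubtful quality. The within-group SD over exposed arrays had a median of 0.81 among members above, 0.69 among members below and 0.90 among considered probes.

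Differences between phenanthrene and control arrays are given without a test, because the control arrays of all times chose the members. The values at 48 and 72 h carry that choice as well. Phenanthrene minus control had a median of -0.67, -0.06 and 0.13 at 24, 48 and 72 h over the members above, where all considered probes gave -0.09, -0.09 and -0.06. Over the members below the medians were 0.43, -0.02 and -0.02. At 24 h the value was negative for 49 of the 51 members above, against 57.6% of considered probes, and positive for 15 of the 15 below, against 42.4%; the choice of members bears on these counts. At 48 and 72 h it was negative for 26 and 24 of the 51 members above, against 57.2% and 54.4% of considered probes. It was positive for 7 and 6 of the 15 below, against 42.8% and 45.6%. In that order of times it was -1.79, -0.13 and -0.09 for UF_Ppr_AF_106942, 0.70, 0.71 and -0.47 for UF_Ppr_AF_115263, and 1.65, 0.17 and -0.59 for UF_Ppr_AF_118743.

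The members were compared on features that the rule did not use. Contig identifiers made up 38 of the 51 members above (74.5%) and 13 of the 15 below (86.7%), against 82.6% of considered probes. Gi numbers made up 25.5% of the members above and 6.7% of those below, against 17.1% of considered probes. By position on the array, 43.1% of members above, 60.0% of members below and 49.9% of considered probes lay in rows 1 to 96. In columns 1 to 41 lay 45.1% of members above, 50.1% of considered probes and 12 of the 15 members below.

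A further 14 probes carried the contig number of a member with another contig suffix, and none of them was a member. UF_Ppr_AF_106953 (FJU.8063.C1___1rc_nrnt) shares the contig number of UF_Ppr_AF_109343. Its control arrays read -1.44 to -0.85 at 24 h and -3.92 to -1.36 later, so the ends of the ranges overlapped, with a mean difference of 1.38. The correlation of the 2 probes was 0.94 over the 14 control arrays, which include the values that chose the member, and 0.85 over the 14 exposed arrays. In exposed arrays the differences were 0.95 and 1.49. The other pairs varied: UF_Ppr_AF_111924 and UF_Ppr_AF_100538 gave 0.68 and 0.90, while UF_Ppr_AF_116384 and UF_Ppr_AF_106942 gave 0.08 and 0.23. Over all pairs the control correlations ran from -0.44, for UF_Ppr_AF_109289 and UF_Ppr_AF_107801, to 0.94. The exposed ones ran from -0.32, for UF_Ppr_AF_105596 and UF_Ppr_AF_118456, to 0.90, so some pairs went opposite ways. These correlations share array brightness and scaling and are descriptions only.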

How the data were processed

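Intensity values are the processed signals that Agilent Feature Extraction 10.7.1.1 wrote after its background correction, 1 table per array, per the file headers. A series table of log2 values was deposited too, and its scaling and centring are not given in the sources used here. Its columns had medians of 4.96 to 6.98 and correlated at 0.953 or more with the log2 signal of their own array, which sets the direction, with slopes of 0.928 to 1.27, which set the log base. Its 1 column of no sample was not used, and exposed 24 h replicate 5 has 10683 values in it.

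Log2 processed signals minus each array's 75th percentile were compared. The 6 group means of all 28 arrays were fitted in limma 3.58.1 (R 4.3.3, 22 residual degrees of freedom), with Benjamini-Hochberg adjustment over the 11492 probes that 3 or more arrays of any group showed well above background. Spots marked as outliers were left out of the fit but kept in the choice of members. Number of arrays limits the precision. The limma step was tested on simulated data.

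The members and lists were chosen with earlier results of these data known. Members named by rule, in each direction, are the 10 with the widest gap among those bright on all control arrays, the 5 with the smallest exposed p in the control direction and 1 in the opposite one, up to 3 dim on 1 side, and the 2 nearest the limit with the 2 nearest outside. No member has a gene name here, and no probe sequence was used.

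Alternatives were quantile normalization, median scaling, normexp (offset 50, on median spot signals), the authors' table, other filters, scan day, slide as a block, array weights, other priors and thresholds, single times, 3 doubtful arrays left out, and each array left out in turn.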

Additional observations from a re-analysis of the deposited data

Results flagged for a closer look

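An array was flagged where its gap to the nearest other array of its group, divided by the group's range, exceeded Dixon's 95% critical value. Of 192 groups tested, 20 were flagged. Chance flags about 1 in 20 single independent groups, and that rate does not carry over here. The groups share arrays, and the control groups hold the values that chose the members, so the flags are a description only. Values are log2 relative to the 75th percentile unless named as medians, and no explanation was tested.

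In exposed arrays, 72 h replicate 4 stood low for UF_Ppr_AF_110664 (-3.96), UF_Ppr_AF_117427 (-6.74) and UF_Ppr_AF_118456 (-0.92), and high for UF_Ppr_AF_109620 (4.73). The median of the members above was low there (-1.13) and that of the members below high (0.52). Exposed 48 h replicate 1 stood high for UF_Ppr_AF_106942 (1.25) and UF_Ppr_AF_109620 (3.76) and low for UF_Ppr_AF_116352 (0.13). These 2 arrays had the most spots marked as outliers, 498 and 201.

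At 24 h, exposed replicate 1 stood high for UF_Ppr_AF_106942 (1.63), replicate 4 high for UF_Ppr_AF_103916 (-0.72) and low for the median of the members above (-0.58), and replicate 5 high for UF_Ppr_AF_110664 (-0.93).

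In control arrays, 72 h replicate 3 stood low for UF_Ppr_AF_102383 (-1.50) and UF_Ppr_AF_106680 (-3.21), and 72 h replicate 2 low for UF_Ppr_AF_109405 (0.26). At 24 h, replicate 3 stood high for UF_Ppr_AF_103916 (-1.20) and low for UF_Ppr_AF_112639 (1.81), replicate 4 low for UF_Ppr_AF_109405 (-0.069), and replicate 1 high for the median of the members below (-0.31).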

How the results depend on the processing

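Members above and below numbered 26 and 26 with quantile normalization, 21 and 54 with median scaling, 21 and 18 with normexp and 21 and 24 in the authors' table. Restricting the members to probes well above background on every control array left 18 above and 15 below. Fewer arrays gave more by construction: 255 and 55 with the second scan day only, 304 and 113 with 72 h as the later group, 354 and 127 with 48 h, and 52 to 196 and 17 to 59 with 1 control array left out. In exposed arrays, 3 probes passed in limma. That count was 0 with normexp, the authors' table, the stricter brightness filter, the second scan day only and slide as a fixed block. It was 1 against 48 h and without the 3 doubtful arrays, and 1 to 5 with 1 array left out: 5 without exposed 24 h replicate 4 and 1 without replicate 5. The stricter filter asks for every exposed array to be well above background, so the 3 passing probes could not enter it. No member passed in any setting. Unadjusted, limma gave 1324 of 11492 probes, and 623 of the 4754 probes left by the stricter filter. It gave 504 with the second scan day, 1497 with normexp, 1253 in the authors' table and 1129 with slide as a fixed block. With only the exposed arrays it gave 762, and with 1 array left out 932 to 1513. Members above that were higher at 24 h numbered 4 under the stricter filter, which left 6 of them, against 49.9% of probes tested. With 1 array left out they numbered 38 to 42, against 54.2% to 60.4% of probes tested. Members below that were lower then numbered 8 to 12, against 39.6% to 45.8%. Members above without overlap in exposed arrays numbered 1 with quantile, median scaling or the authors' table (0.214%, 0.196% and 0.205% of considered probes), 1 without the 3 doubtful arrays (0.890%), 2 on the second scan day (0.792%), 3 against 72 h (1.29%) and 0 to 2 with 1 array left out: 1 without exposed 24 h replicate 3 (0.427%) and 2 without 48 h replicate 2 (0.409%). Of the 30 named members, 14 changed the sign of their exposed difference under at least 1 alternative (53 of 600 values, the largest 0.47 in size), and adjusted p ran from 0.162 to 1.0. No paired analysis was made because the labels name no pairs of arrays.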
